A study of Mus musculus with 14 samples.

Results

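Gene levels in luminal cells of the mouse mammary gland were compared between pools 1 to 3 and pools 4 to 7 of 1 array study, within each of 2 sorted luminal populations. Mammary cells of adult virgin females were sorted by flow cytometry with antibodies to the epithelial protein CD24 and the adhesion molecule ICAM-1. The luminal gates held CD24+ ICAM1+ cells (Lu-pos) and CD24+ ICAM1- cells (Lu-neg). Basal cells, gated apart, were CD24+ ICAM1+ too. The stain also held antibodies to CD45 and CD31, which mark leukocytes and endothelial cells. Each pool was made of at least 12 glands and gave 1 Lu-pos and 1 Lu-neg array, so that pools 1 to 3 hold 6 arrays and pools 4 to 7 hold 8 arrays of 14 in all. The pool number was read from the replicate number in the sample titles. The mice were BALB/cByJ JAX and C57Bl/6 females. Which strain went into which pool is not stated in the labels or methods, so the part of strain in the differences below was not tested. The values are log2 intensities, on which a difference of 1 is a 2-fold difference.

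A gene was kept as a member where its mean differed at least 1.5-fold between the pool sets, in the same direction in Lu-pos and in Lu-neg. Members were selected on these measured values, and the split of the pools was itself noticed on these arrays. The pool-set difference, pools 1 to 3 minus pools 4 to 7, is therefore given as a description with its standard error (SE) over arrays and no test. Of 22180 genes, 397 (1.79%) were members. Of these, 176 (0.794% of all genes) were higher and 221 (0.996%) were lower in pools 1 to 3, a share of 44.3% higher that became 32.7% of 419 members when arrays were scaled to their 75th percentile. Just inside the threshold lay Wnk2, at 0.59 in Lu-pos and 0.99 in Lu-neg cells, and Rpl15-ps6, at -0.63 and -0.59 in the same order. Just outside lay Ndufa3 (-0.68 in Lu-pos, -0.58 in Lu-neg) and Vkorc1l1 (-0.65 in Lu-pos, -0.58 in Lu-neg).

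The luminal layer of the resting gland holds progenitors, enriched in the Lu-pos gate, and hormone-sensing cells, enriched in the Lu-neg gate, which carry estrogen and progesterone receptors. Besides the genes of their lineage, epithelial cells keep an inducible antiviral program, in which interferon switches on genes that restrict viruses. Lipid synthesis, ribosome production and the respiratory chain are regulated as whole sets of genes. Processed pseudogenes are copies of messenger RNAs that were inserted into the genome, and many derive from ribosomal protein genes.

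The arrays were of luminal cells in both pool sets. All 11 genes of the luminal marker list were above the background level of 3.73, and their mean level lay between 9.63 and 9.83 in Lu-pos cells of pools 1 to 3, 9.66 and 9.86 in Lu-pos cells of pools 4 to 7, 9.50 and 9.61 in Lu-neg cells of pools 1 to 3, and 9.50 and 9.75 in Lu-neg cells of pools 4 to 7. None of them was a member. Of 12 luminal progenitor genes, the mean lay between 7.84 and 8.19 over all Lu-pos arrays and between 5.31 and 6.78 over all Lu-neg arrays, and the Lu-neg array of pool 4 was the highest of its population. Hormone-sensing genes (12 measured, no member) ranged from 5.16 to 6.66 in Lu-pos cells of pools 1 to 3 and from 6.27 to 6.54 in those of pools 4 to 7. The 5.16 belonged to pool 3. In Lu-neg cells they ranged from 7.81 to 7.85 in pools 1 to 3 and from 7.30 to 7.64 in pools 4 to 7. Bulk arrays cannot tell fewer cells of a type from less RNA per cell.

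The median absolute pool-set difference was below the median SD between pools of 1 set. The SD is that of single arrays and the difference is between means of 3 and 4 pools, so they are on different scales. Among the 11029 genes above background, the median absolute difference was 0.22 in Lu-pos and 0.21 in Lu-neg cells, and the median SD between pools of 1 set was 0.28 in Lu-pos and 0.26 in Lu-neg cells. A difference of 1.5-fold or more was reached by 1532 genes in Lu-pos cells (892 higher and 640 lower) and by 1374 genes in Lu-neg cells (684 higher and 690 lower). Of the 442 genes that reached it in both, 397 moved alike and 45 moved in opposite directions. Without regard to size, 529 genes (2.39%) had arrays of the pool sets that did not overlap in either population and differed in the same direction, and 49 genes did so in opposite directions. Among members, 198 (49.9%) did not overlap, 79 higher and 119 lower; since members were picked for their difference, this share is only a description. The members reached 2-fold in both populations in 41 cases higher and 48 lower, and 4-fold in 3 cases higher and 7 lower. Their SE had a median of 0.29 in each population. The median level of the members, 5.74, was close to that of all genes above background, 5.51, and 363 members lay above background.

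**Figure D1:**
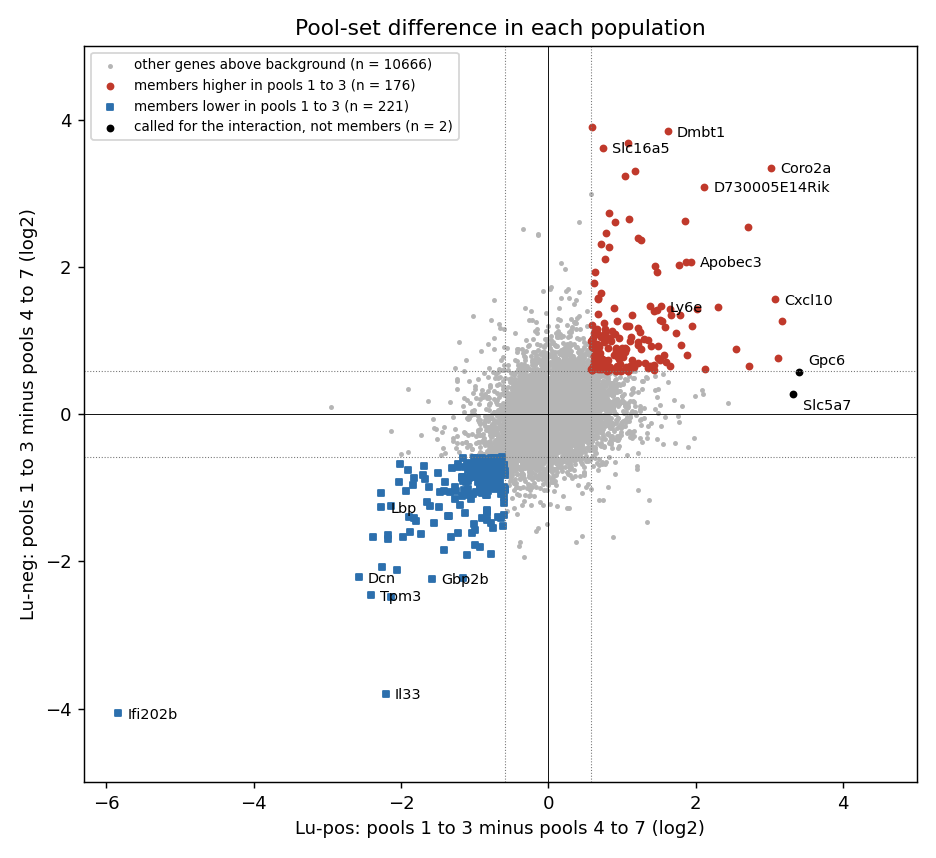
Each point is 1 gene, with the pool-set difference (pools 1 to 3 minus pools 4 to 7, log2) in Lu-pos cells on the horizontal axis and in Lu-neg cells on the vertical axis. Grey points are other genes above background, red circles the 176 members higher and blue squares the 221 members lower in pools 1 to 3, black points the 2 other genes with a called interaction, and dotted lines mark 1.5-fold. Ifi202b lies farthest out among lower members, at -5.84 in Lu-pos and -4.07 in Lu-neg cells, and Coro2a farthest among higher members on the smaller of its 2 differences.

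The largest difference of all was that of Ifi202b, which encodes an interferon-inducible protein of the HIN-200 family that binds DNA in the cytosol. In Lu-pos cells its level was 3.95, 3.15 and 3.0 in pools 1 to 3, against 9.39, 9.23, 8.64 and 9.55 in pools 4 to 7. In Lu-neg cells it was 2.96, 3.09 and 2.71 in pools 1 to 3, against 8.16, 6.64, 5.91 and 7.23 in pools 4 to 7. Every array of pools 4 to 7 was high, and 5 of the 6 arrays of pools 1 to 3 lay under background. The difference was -5.84 (SE 0.36) in Lu-pos and -4.07 (SE 0.49) in Lu-neg cells. Counted from the background level, Ifi202b was at least 42.1-fold lower in Lu-pos and at least 9.53-fold lower in Lu-neg cells of pools 1 to 3. Mndal, its neighbor on the chromosome and a gene of the same family, was at least 1.49-fold lower in Lu-pos cells. In Lu-neg cells its arrays overlapped, and pool 4 alone passed background, at 4.90.

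Il33, Dcn and Gbp2b were other members with much lower levels in pools 1 to 3. Il33 encodes an alarmin cytokine of epithelial and stromal cells. Its level was 4.10, 3.89 and 3.11 in Lu-pos cells of pools 1 to 3, against 5.62, 5.99, 5.66 and 6.36 in those of pools 4 to 7. In Lu-neg cells it was 4.97, 3.83 and 3.42 in pools 1 to 3, against 7.63, 7.90, 8.06 and 7.89 in pools 4 to 7. The pool sets did not overlap, and the difference was -2.21 (SE 0.35) in Lu-pos and -3.80 (SE 0.47) in Lu-neg cells. Dcn encodes decorin, a proteoglycan of the matrix that is usually read as a fibroblast marker. It was at 7.11, 7.86 and 7.29 in Lu-pos cells of pools 1 to 3, against 9.82, 10.03, 9.61 and 10.50 in those of pools 4 to 7, and at 8.0, 8.48 and 7.85 in Lu-neg cells of pools 1 to 3, against 10.13, 10.60, 9.88 and 10.69 in those of pools 4 to 7. Again the sets did not overlap (-2.57, SE 0.30, in Lu-pos; -2.22, SE 0.27, in Lu-neg). Of the 9 fibroblast markers measured Dcn was the only member. The median difference of that list was 0.06 in Lu-pos and -0.36 in Lu-neg cells, Col1a1 differed by 0.07 and -0.08 in that order, and the mean of the list ranged from 4.96 to 5.47 (Lu-pos, pools 1 to 3), 5.00 to 6.27 (Lu-pos, pools 4 to 7), 4.19 to 5.57 (Lu-neg, pools 1 to 3) and 5.19 to 5.56 (Lu-neg, pools 4 to 7). The part of stromal cells in the Dcn difference was not tested.

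Gbp2b encodes a guanylate-binding protein, a GTPase that interferon induces. It was at 2.82, 2.57 and 2.79 in Lu-pos cells of pools 1 to 3, against 3.88, 4.72, 4.56 and 4.06 in those of pools 4 to 7, and at 2.87, 3.08 and 2.93 in Lu-neg cells of pools 1 to 3, against 5.41, 5.15, 5.25 and 4.97 in those of pools 4 to 7. All arrays of pools 4 to 7 and none of pools 1 to 3 passed background, so that Gbp2b was at least 1.49-fold lower in Lu-pos and at least 2.75-fold lower in Lu-neg cells of pools 1 to 3. In a list of 6 genes known to have different alleles in BALB/c and C57BL/6 mice, 3 were measured and 2 lay above background. Gbp2b was the only member, and all 3 were below 0 in both populations, as were 6529 of all 22180 genes. The part of strain was not tested. In Lu-pos cells the list mean, which Gbp2b is part of, lay between 2.81 and 3.07 in pools 1 to 3. In pools 4 to 7 it lay between 3.44 and 3.71, so that all Lu-pos values were under background. In Lu-neg cells of pools 1 to 3 it lay between 2.96 and 3.08, also under background. In Lu-neg cells of pools 4 to 7 it lay between 3.87 and 4.36. The same on-or-off pattern, all arrays of 1 set above and all of the other at or below background in both populations, was shown by 6 members: Gbp2b, the axonemal dynein gene Dnah17, the small nucleolar RNA gene Snora20 and Spopfm2 were on in pools 4 to 7, and D730005E14Rik and 5830417I10Rik were on in pools 1 to 3. This pattern was chosen after the values were seen.

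Among lower members with a metabolic role, Glo1, which encodes glyoxalase 1, an enzyme that removes methylglyoxal, was 3.48-fold lower in Lu-pos and 2.74-fold lower in Lu-neg cells of pools 1 to 3. Its level was 7.09, 6.82 and 6.84 in Lu-pos cells of pools 1 to 3, against 8.68, 8.50, 8.89 and 8.79 in those of pools 4 to 7, with SE of 0.12 in Lu-pos and 0.18 in Lu-neg cells. Alad, which encodes an early enzyme of heme synthesis, was 2.50-fold lower in Lu-pos and 3.19-fold lower in Lu-neg cells. Chchd10, which encodes a protein of the mitochondrial intermembrane space, was 2.24-fold and 2.17-fold lower in that order. Glo1, Alad and Chchd10 are named after their values were seen, and none of them overlapped between the pool sets in either population. Krt6a, a keratin gene of stressed and progenitor-rich epithelia, was lower too, at -2.17 (SE 0.68) in Lu-pos and -1.69 (SE 0.48) in Lu-neg cells.

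Tpm3, a tropomyosin gene, and Ahcy, which encodes the enzyme that hydrolyzes S-adenosylhomocysteine, were also among the largest negative differences, but on 1 probe set only. The brighter probe set of Tpm3 was at 5.86, 5.25 and 5.93 in Lu-pos cells of pools 1 to 3, against 8.14, 8.14, 7.87 and 8.19 in those of pools 4 to 7 (-2.40, SE 0.23), and differed by -2.46 (SE 0.26) in Lu-neg cells. The other probe set of Tpm3, at a mean level of 5.15, differed by -0.19 in Lu-pos and 0.10 in Lu-neg cells. Of Ahcy the brighter probe set differed by -2.26 in Lu-pos and -2.08 in Lu-neg cells, and the other, under background, by 0.94 and 0.19 in that order. Of 47 members with several probe sets, all sets of 26 genes moved in the direction of the brightest, and all sets of 5 genes reached 1.5-fold in both populations. Coro2a and Rab6b were among those 5. A probe set can also meet transcripts of near-identical copies, so such calls hold for the probe set rather than for the gene.

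**Figure D2:**
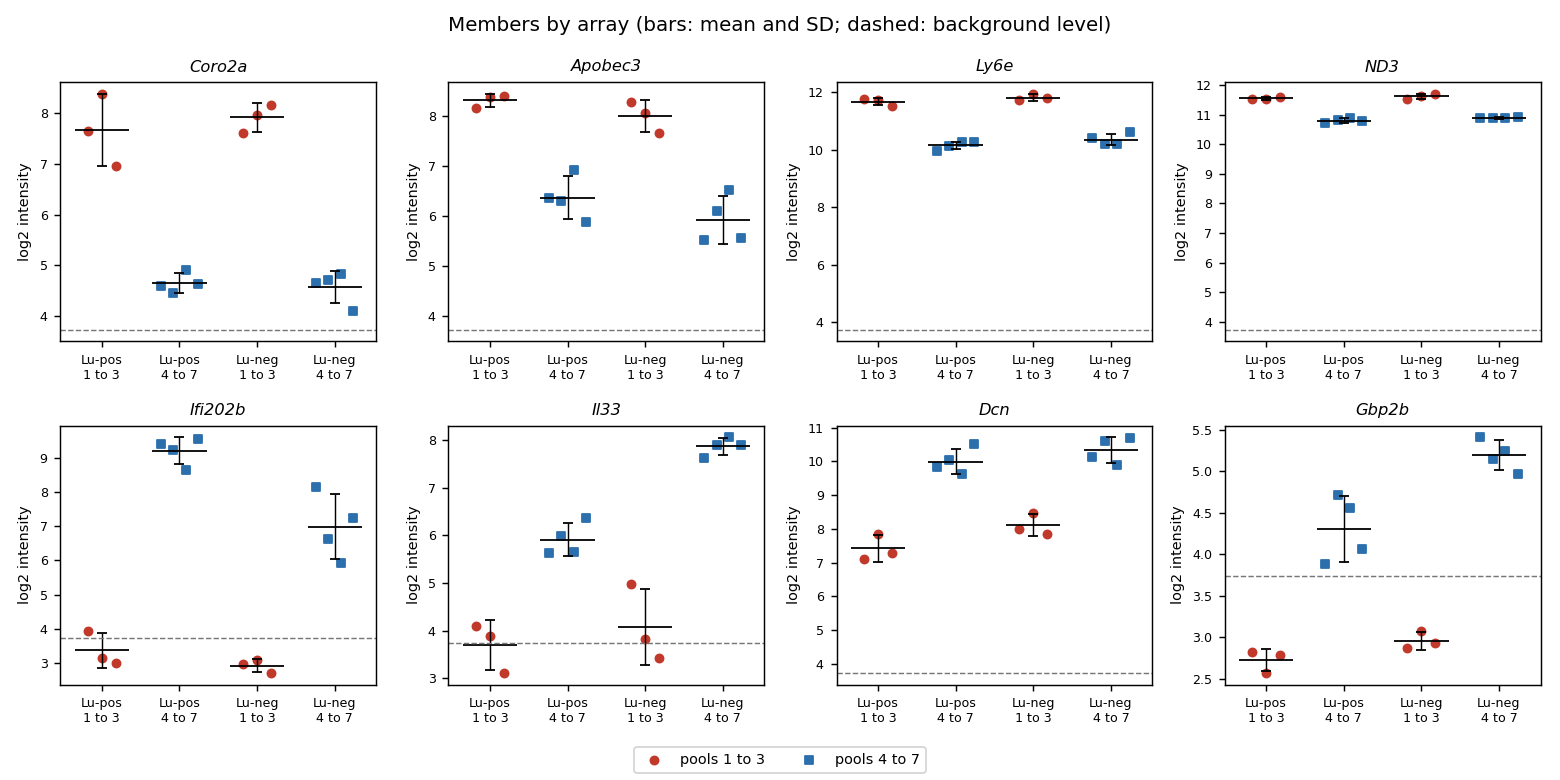
Log2 intensity of 8 members on each array, with pools 1 to 3 as red circles and pools 4 to 7 as blue squares, Lu-pos on the left and Lu-neg on the right of each panel. Horizontal bars are means and error bars SDs (n = 3 for pools 1 to 3, n = 4 for pools 4 to 7), and the dashed line is the background level of 3.73. In none of the 8 panels do the pool sets overlap within a population.

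Coro2a had the largest difference among higher members when the smaller of the differences in Lu-pos and Lu-neg cells is taken. It encodes a coronin, of a family of actin-binding proteins. Its level was 7.66, 8.38 and 6.97 in Lu-pos cells of pools 1 to 3, against 4.59, 4.45, 4.92 and 4.63 in those of pools 4 to 7. In Lu-neg cells it was 7.62, 7.97 and 8.17 in pools 1 to 3, against 4.65, 4.72, 4.83 and 4.11 in pools 4 to 7. The sets were separated by a wide gap, and Coro2a was 8.13-fold higher in Lu-pos (log2 difference 3.02, SE 0.42) and 10.14-fold higher in Lu-neg cells (3.34, SE 0.23). Its second probe set, at a mean of 5.76, differed by 1.30 in Lu-pos and 1.03 in Lu-neg cells. Trim14, an adaptor gene of antiviral signaling that adjoins Coro2a on the chromosome, was 2.33-fold higher in Lu-pos and 1.92-fold higher in Lu-neg cells.

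Apobec3 encodes a cytidine deaminase that restricts retroviruses. It was at 8.17, 8.38 and 8.39 in Lu-pos cells of pools 1 to 3, against 6.37, 6.30, 6.93 and 5.89 in those of pools 4 to 7, and at 8.28, 8.06 and 7.66 in Lu-neg cells of pools 1 to 3, against 5.53, 6.11, 6.53 and 5.56 in those of pools 4 to 7. Without overlap, the difference was 1.94 (SE 0.23) in Lu-pos and 2.07 (SE 0.30) in Lu-neg cells. Its neighbors D730005E14Rik (at least 2.53-fold higher in Lu-pos and 4.80-fold in Lu-neg cells, with all arrays of pools 4 to 7 under background) and Cbx7, a Polycomb gene (0.93, SE 0.12, in Lu-pos; 0.65, SE 0.12, in Lu-neg), were members in the same direction. B3gnt3, which encodes a glycosyltransferase of O-glycans, was at least 2.82-fold higher in Lu-pos cells, where all arrays of pools 4 to 7 lay under background, and 4.17-fold higher in Lu-neg cells. Dmbt1, a secreted scavenger receptor of mucosal surfaces, was under background on all arrays of pools 4 to 7 and at least 8.61-fold higher in Lu-neg cells of pools 1 to 3. In Lu-pos cells it was at 3.69, 6.01 and 3.34 in pools 1 to 3, of which pool 2 alone passed background, and the fold was at least 1.53.

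Bright genes with little spread were found among the higher members as well. Ly6e encodes a small surface protein that interferon induces, and its level was 11.77, 11.72 and 11.52 in Lu-pos cells of pools 1 to 3, against 9.96, 10.11, 10.25 and 10.25 in those of pools 4 to 7. In Lu-neg cells Ly6e was at 11.71, 11.93 and 11.78 in pools 1 to 3, against 10.40, 10.18, 10.20 and 10.60 in pools 4 to 7. It was 2.88-fold higher in Lu-pos (SE 0.10 on the log2 scale) and 2.75-fold higher in Lu-neg cells (SE 0.12). ND3, a gene of the mitochondrial genome for a complex I subunit, varied little within each set. It was at 11.52, 11.54 and 11.61 in Lu-pos cells of pools 1 to 3, against 10.70, 10.81, 10.88 and 10.79 in those of pools 4 to 7, and at 11.54, 11.62 and 11.69 in Lu-neg cells of pools 1 to 3, against 10.87, 10.88, 10.88 and 10.91 in those of pools 4 to 7. The difference was 0.76 (SE 0.05) in Lu-pos and 0.73 (SE 0.04) in Lu-neg cells; ND3 is named after its values were seen. H2-K1, a heavy chain gene of class I MHC, was 2.11-fold and 2.29-fold higher in that order, as the only member of 18 measured genes of antigen presentation. Further members were Rab6b, a Golgi transport GTPase gene (1.47 in Lu-pos, 1.93 in Lu-neg), and Ubd, which encodes a ubiquitin-like protein (1.38 in Lu-pos, 1.47 in Lu-neg), while Olfr1303, an odorant receptor gene, was higher by 1.65 in Lu-pos and 1.43 in Lu-neg cells.

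Genes of the interferon response were found among both higher and lower members. Of 31 interferon-stimulated genes measured, 3 were members and all 3 were higher in pools 1 to 3, while Ifi202b, Mndal and Gbp2b, which are not on that list, were lower. In both populations 21 of the 31 genes were above 0 and 2 below, against 6666 above and 6529 below among all 22180 genes. The list had a median of 0.31 in Lu-pos and 0.07 in Lu-neg cells, against 0.03 and -0.03 for all genes in that order. Without pool 1, 12 of its genes were above 0 and 3 below in both populations, and its Lu-neg median was 0.0. Cxcl10 encodes a chemokine that attracts T cells. Its level was 7.68, 6.87 and 8.02 in Lu-pos cells of pools 1 to 3, against 3.83, 4.01, 4.63 and 5.29 in those of pools 4 to 7, a difference of 3.08 (SE 0.48) without overlap. In Lu-neg cells it was 4.95, 7.39 and 6.34 in pools 1 to 3, against 4.25, 4.32, 4.78 and 5.31 in pools 4 to 7, a difference of 1.56 (SE 0.75) with overlap through the Lu-neg array of pool 1. Oasl2, a gene of the oligoadenylate synthetase family (0.81, SE 0.15, in Lu-pos; 0.90, SE 0.32, in Lu-neg), and Irf9, a subunit of the factor that binds interferon response elements (0.71, SE 0.31, in Lu-pos; 0.71, SE 0.19, in Lu-neg), were higher without overlap. Averaged over the 23 list genes above background, the level lay between 5.50 and 5.80 in Lu-pos cells of pools 1 to 3 and between 4.94 and 5.28 in those of pools 4 to 7, and between 5.65 and 5.91 in Lu-neg cells of pools 1 to 3 and 5.31 and 5.69 in those of pools 4 to 7. No immune marker was a member: of 15 measured, 3 were above background, and the list mean stayed between 3.05 and 3.52 on all arrays.

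Promoter windows of 3 of these genes, 1 higher list gene (Cxcl10), 1 higher gene outside the list (Apobec3) and 1 lower gene (Gbp2b), are shown because all 3 hold a sequence that matches the core of an interferon-stimulated response element. The windows run from 250 bases before to 50 bases after the transcription start, read 5′ to 3′ on the gene's strand, from RefSeq on build GRCm38.p6. Capitals mark the match to GAAANNGAAA, the 1 motif searched, on both strands. On the opposite strand it reads as TTTCNNTTTC. The windows are Cxcl10, chr5:92348840-92349139 on the minus strand with its match at base 38; Gbp2b, chr3:142594597-142594896 on the plus strand with its match at base 114; and Apobec3, chr15:79892158-79892457 on the plus strand with its match at base 111, the first of its 2 windows.
Cxcl10: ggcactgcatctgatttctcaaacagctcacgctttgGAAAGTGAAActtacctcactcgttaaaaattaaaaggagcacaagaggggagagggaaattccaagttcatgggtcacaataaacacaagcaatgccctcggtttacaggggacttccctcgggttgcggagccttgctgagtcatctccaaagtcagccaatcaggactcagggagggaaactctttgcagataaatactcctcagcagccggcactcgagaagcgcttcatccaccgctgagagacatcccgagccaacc
Gbp2b: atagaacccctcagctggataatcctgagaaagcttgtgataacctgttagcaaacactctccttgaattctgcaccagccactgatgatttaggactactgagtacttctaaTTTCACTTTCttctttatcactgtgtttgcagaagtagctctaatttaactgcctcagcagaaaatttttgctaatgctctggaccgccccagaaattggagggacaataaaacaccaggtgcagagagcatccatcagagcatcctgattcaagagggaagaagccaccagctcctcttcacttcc
Apobec3: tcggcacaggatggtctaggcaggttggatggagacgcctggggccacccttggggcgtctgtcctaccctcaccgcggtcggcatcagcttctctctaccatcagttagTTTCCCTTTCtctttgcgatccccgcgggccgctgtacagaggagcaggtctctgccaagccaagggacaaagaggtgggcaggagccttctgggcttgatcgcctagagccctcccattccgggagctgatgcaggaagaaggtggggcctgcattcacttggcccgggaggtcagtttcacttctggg

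The match was present in 657 of 16990 measured genes with a promoter window (3.87%) and in 15 of 23 interferon-stimulated genes with one (65.2%). Of the members with a window it was present in 7 of 126 higher genes (5.56%) and in 8 of 129 lower genes (6.20%). Mndal, Trim12c and Trim34a also held it, whereas the windows of Ifi202b, Irf9, Oasl2 and Ubd did not. The reference sequence is that of 1 inbred strain, and a match is a description of the letters only.

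Pseudogenes were members in 1 direction only. Of 218 genes annotated as pseudogenes by RefSeq, 30 (13.8%) were members and all 30 were lower in pools 1 to 3; among 18984 protein-coding genes, 316 (1.67%) were members, 156 of them higher. In 28 of the 30 the pool sets did not overlap, and differences ran from -1.82 to -0.60 in Lu-pos and from -1.84 to -0.59 in Lu-neg cells. Averaged over the 83 pseudogenes above background, the level was 5.59, 5.67 and 5.74 in Lu-pos cells of pools 1 to 3, against 6.24, 6.16, 6.28 and 6.07 in those of pools 4 to 7. In Lu-neg cells it was 5.69, 5.67 and 5.81 in pools 1 to 3, against 6.11, 6.15, 6.27 and 6.13 in pools 4 to 7. All arrays of pools 1 to 3 were thus below all arrays of pools 4 to 7, and the members among them carry part of this average. Rps15a-ps5, a copy of a ribosomal protein gene, was at 7.94, 7.78 and 8.50 in Lu-pos cells of pools 1 to 3, against 9.46, 9.16, 9.67 and 9.32 in those of pools 4 to 7, with differences of -1.33 (SE 0.24) in Lu-pos and -1.06 (SE 0.12) in Lu-neg cells. Gm4963 was lower in Lu-pos (-1.82, SE 0.13) and Lu-neg cells (-1.41, SE 0.38), and Gm5848 likewise (-1.42, SE 0.41, in Lu-pos; -1.84, SE 0.16, in Lu-neg). These 3 are named after their values were seen, and a probe set of a processed copy can also measure its parent gene. Of 301 transcribed pseudogenes, 8 were members, 2 higher and 6 lower.

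Ribosomal protein genes and the respiratory chain tended to be lower, by small amounts. Of 66 cytosolic ribosomal protein genes, 4 were lower members (Rpl6l, Rpl7, Rpl9 and Rps13), against 0.996% of all genes. Rpl17 and Rps15 were the 2 higher members, against 0.794% of all genes, and the mean level of Rps15, 3.20, was under background. Of the 66 genes 42 were below 0 and 10 above 0 in both populations, against 6529 and 6666 of all 22180 genes. Rpl7 and Rpl9 were members on the brighter of 2 probe sets only. The other set of Rpl9, at a mean level of 4.80, differed by -0.04 in Lu-pos and -0.31 in Lu-neg cells. That of Rpl7, at 3.95, differed by -0.12 in Lu-pos and -0.305 in Lu-neg cells. Rps13, a subunit gene of the small ribosomal subunit, was at 9.35, 9.73 and 9.92 in Lu-pos cells of pools 1 to 3, against 10.68, 10.33, 10.70 and 10.28 in those of pools 4 to 7, and at 9.49, 9.59 and 9.67 in Lu-neg cells of pools 1 to 3, against 10.36, 10.42, 10.53 and 10.42 in those of pools 4 to 7. Of 81 respiratory chain genes, 61 were below 0 and 10 above 0 in both populations and 18 were lower and 1 higher without overlap, against 2.39% of all genes in either direction. As lower members 3 were counted, against 0.996% of all genes, and 6 without pool 2, 5 without pool 3 and 5 without pool 5; the 18 became 30 without pool 5. The 3 were the ATP synthase gene Atp5mpl, Ndufb3 (-1.02, SE 0.19, in Lu-pos; -0.86, SE 0.12, in Lu-neg) and Ndufb9 (-1.0, SE 0.13, in Lu-pos; -0.68, SE 0.09, in Lu-neg), both of complex I. The list median was -0.32 in Lu-pos and -0.26 in Lu-neg cells. Of 71 mitochondrial ribosomal protein genes 42 were below 0 and 6 above 0 in both populations, and Mrps21 and Mrpl54 were lower members; without pool 3, 37 were below 0 and 13 above 0, and without pool 5, 6 were lower members. ND3, which the mitochondrial genome encodes, was higher. It was named after its values were seen, and no other gene of that genome is named here. The median of all 3 lists stayed below 0 in both populations under each of 4 other scalings of the arrays and without any 1 pool. In Lu-pos cells the cytosolic ribosomal median was -0.13, and -0.03 after quantile normalization, and the mitochondrial ribosomal median was -0.18, and -0.09 without pool 3 and -0.11 without pool 6.

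Lipid synthesis genes tended the other way. Of 16 cholesterol synthesis genes, 13 were above 0 and 1 below 0 in both populations. Among all 22180 genes 6666 were above 0 and 6529 below 0 in both, and 0.794% were higher members. These values stand beside the counts of each list in this paragraph. The median was 0.34 in Lu-pos and 0.28 in Lu-neg cells. Higher members were 3 of them, 5 without pool 2 or pool 7, and 2 without pool 3 or pool 6. Under 75th percentile scaling and under quantile normalization 2 were higher members. Msmo1, an enzyme gene of late cholesterol synthesis, was at 6.08, 6.14 and 6.01 in Lu-pos cells of pools 1 to 3, against 4.88, 5.09, 5.15 and 4.56 in those of pools 4 to 7, while in Lu-neg cells 6.45, 5.71 and 7.0 in pools 1 to 3 overlapped with 5.70, 5.66, 5.63 and 5.84 in pools 4 to 7. Hmgcs1, which encodes the enzyme before the rate-limiting reductase (0.62, SE 0.11, in Lu-pos; 1.10, SE 0.42, in Lu-neg), did not overlap, and Cyp51, the sterol demethylase gene (1.0, SE 0.39, in Lu-pos; 0.90, SE 0.33, in Lu-neg), overlapped in Lu-pos cells. Of 17 genes of fatty acid and triglyceride synthesis the elongase gene Elovl6 and the desaturase genes Fads1 and Fads2 were higher members. Fads1 and Fads2 lie side by side, and in Lu-neg cells both overlapped, Fads1 through pool 4 (5.91) and Fads2 through pools 4 (6.72) and 7 (6.20). Circadian clock genes (17 measured) were above 0 in both populations in 11 cases and below in none, and Nr1d1, a repressor of the clock, was the 1 member (0.94, SE 0.44, in Lu-pos; 0.77, SE 0.30, in Lu-neg), without a gap between the sets in either population, and was no member without pool 4.

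**Figure D3:**
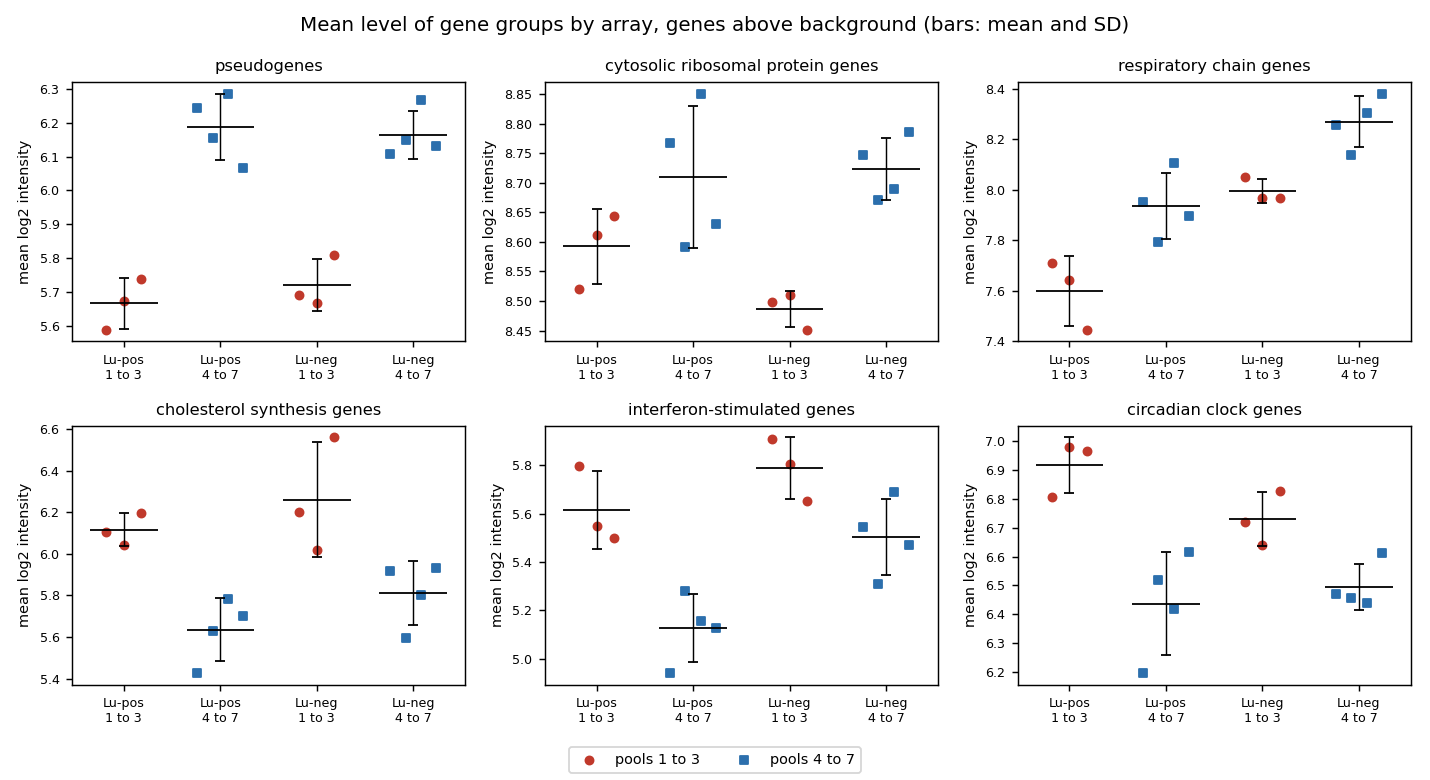
Mean log2 intensity of 6 gene groups on each array, over the genes of each group above background, with pools 1 to 3 as red circles, pools 4 to 7 as blue squares, and bars for the mean and SD (n = 3 and n = 4). Pseudogenes, respiratory chain genes, cholesterol synthesis genes and clock genes do not overlap between pool sets within a population, and cytosolic ribosomal protein genes overlap in Lu-pos and interferon-stimulated genes in Lu-neg cells.

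Other lists held few members. Over all 22180 genes 1.79% were members, and 6666 were above 0 and 6529 below 0 in both populations. Single members are therefore not read as a result about their list. Of the 12 luminal progenitor genes, the aldehyde dehydrogenase gene Aldh1a3 (1.39, SE 0.32, in Lu-pos; 0.93, SE 0.71, in Lu-neg) and the tetraspanin gene Tspan8 (1.31, SE 0.23, in Lu-pos; 0.69, SE 0.58, in Lu-neg) were higher members, and Lbp, which encodes a protein that binds lipopolysaccharide, was a lower one. Lbp was at 6.12, 5.94 and 6.40 in Lu-pos cells of pools 1 to 3, against 8.17, 8.50, 8.45 and 8.55 in those of pools 4 to 7, and at 4.60, 5.16 and 4.83 in Lu-neg cells of pools 1 to 3, against 6.94, 5.22, 6.43 and 5.92 in those of pools 4 to 7. Its sets did not overlap, unlike the Lu-neg arrays of Aldh1a3 and Tspan8. Of 26 immediate early genes the nuclear receptor gene Nr4a3 was higher (1.37 in Lu-pos, 0.66 in Lu-neg) and the endothelial and T cell factor gene Klf2 lower (-0.99 in Lu-pos, -1.78 in Lu-neg). Of 14 heat shock genes the chaperonin gene Hspe1 was the 1 member and was higher (1.11 in Lu-pos, 0.99 in Lu-neg), while 10 of the 14 were below 0 and 1 above 0 in both populations. Of 12 glucocorticoid and metal response genes Zbtb16 and Pdk4 were higher, and of 26 cell division genes the replication helicase gene Mcm6 was the 1 member and was higher (0.94 in Lu-pos, 1.26 in Lu-neg), while 13 were below 0 and 4 above 0 in both populations. Of 31 histone genes H1f5 was a lower member, and H2az1 passed the rule as higher at a mean level of 3.34, under background, which leaves at least 1.16-fold in Lu-pos and at least 1.05-fold in Lu-neg cells, and of 14 milk protein genes Glycam1 was a lower member. Its Lu-pos difference was -0.59 (SE 1.23), with overlap, and was 0.32 without pool 5. In Lu-neg cells Glycam1 was at least 1.71-fold lower by the means, which rests largely on pool 4 at 6.18. Pools 5 to 7 were at 4.12, 3.91 and 3.82 there, little above background. There was no member among 15 unfolded protein response, 13 hypoxia and glycolysis, 21 NF-kappa B, 13 antioxidant, 16 p53 target and 22 splicing genes. Of the unfolded protein response genes 10 were above 0 and 2 below in both populations (median 0.34 in Lu-pos, 0.18 in Lu-neg). Of the antioxidant genes 6 were above 0 and 0 below (median 0.46 in Lu-pos, 0.09 in Lu-neg). Of 13 mucosal defence genes Lbp was the only member, and 4 were above 0 and 9 below. Among markers of other cells, Krt17 was a lower member of 10 basal markers. Its difference was -1.04 (SE 0.28) in Lu-pos cells. In Lu-neg cells the difference of -1.615 was smaller than its SE of 1.691, and the arrays overlapped. No marker was a member among 11 endothelial, 8 adipocyte, 8 skeletal muscle, 7 skin and 2 Schwann cell markers. The endothelial list had a median difference of 0.70 in Lu-pos and 0.07 in Lu-neg cells and a mean level of 3.93 to 5.64 in Lu-pos cells of pools 1 to 3, 3.53 to 4.34 in those of pools 4 to 7, 4.0 to 5.71 in Lu-neg cells of pools 1 to 3 and 4.15 to 5.05 in those of pools 4 to 7. The basal list ranged from 4.03 to 6.55 over all arrays. The part of these cells in the differences was not tested.

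Small RNA genes were members in both directions. Of 81 small nucleolar RNA genes, 13 (16.0%) were members, 3 higher and 10 lower, and of 478 microRNA genes, 13 (2.72%) were members, 6 higher and 7 lower, against 1.79% of all genes. These splits moved when single pools were left out. The small nucleolar RNA genes gave 7 higher and 7 lower members without pool 1, 7 and 10 without pool 2, 2 and 14 without pool 3, 6 and 9 without pool 5 and 6 and 10 without pool 7. The microRNA genes gave 14 higher and 7 lower without pool 1 and 5 and 13 without pool 3. Snord13, a guide of ribosomal RNA modification, was between 8.76 and 10.31 in Lu-pos cells of pools 1 to 3, against 7.73, 6.92, 9.15 and 7.54 in those of pools 4 to 7, and at 9.25, 10.32 and 10.68 in Lu-neg cells of pools 1 to 3, against 8.11, 7.63, 7.97 and 6.12 in those of pools 4 to 7. It overlapped in Lu-pos cells only, through pools 1 and 6, and its neighbors Rnf122 and Tti2 were higher members too. Of all 81 small nucleolar RNA genes 2 had pool sets without overlap in both populations and in the same direction, and over all genes 2.39% did.

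Some members lay beside one another on the chromosome. Of 396 members with a place in the RefSeq annotation, 40 (10.1%) adjoined another member, while of 22136 placed genes 782 (3.53%) adjoined a member. The 40 genes form 19 runs of 2 or 3, and in 15 of these the genes moved in the same direction. Among these were Mndal with Ifi202b, Trim14 with Coro2a, D730005E14Rik with Apobec3 and Cbx7, Rnf122 with Snord13 and Tti2, Fads2 with Fads1, Krt16 with Krt17 and Mcm6 with Cxcr4. Neighbors can share a probe region or a transcript, and neither was tested.

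Whether the pool-set difference was of the same size in both populations was tested by limma on the 7 within-pool differences, Lu-pos minus Lu-neg, between the pool sets. The split was noticed on these same arrays, and these p-values take it as given. At an adjusted p under 0.05, 3 of 22180 genes were called (0.0135%), and 1976 had an unadjusted p under 0.05. Slc5a7, the high-affinity choline transporter gene, was at 6.02, 6.26 and 6.17 in Lu-pos cells of pools 1 to 3, against 2.86, 2.71, 2.86 and 2.85 in those of pools 4 to 7, whereas all Lu-neg arrays lay between 2.48 and 3.38, under background. The Lu-pos difference exceeded the Lu-neg difference by 3.06 (SE 0.20, limma adjusted p = 0.00305). Gpc6, which encodes a glypican, was at 7.36, 7.41 and 7.52 in Lu-pos cells of pools 1 to 3, against 3.70, 4.10, 4.47 and 3.81 in those of pools 4 to 7; in Lu-neg cells it was at 4.70, 4.54 and 4.33 in pools 1 to 3, against 3.96, 4.07, 3.75 and 4.02 in pools 4 to 7, an excess of 2.84 in Lu-pos (limma adjusted p = 0.0221). Slc16a5, a gene of the monocarboxylate transporter family and the only member of the 3, ran the other way: it was at 5.60, 4.44 and 3.52 in Lu-pos cells of pools 1 to 3, against 3.74, 3.85, 3.44 and 4.05 in those of pools 4 to 7, and at 8.85, 7.86 and 6.63 in Lu-neg cells of pools 1 to 3, against 3.72, 3.97, 4.13 and 4.83 in those of pools 4 to 7 (-2.87 for Lu-pos minus Lu-neg, limma adjusted p = 0.0112). With eBayes set to trend and robust 0 genes were called (smallest adjusted p = 0.104, 1862 at an unadjusted p under 0.05). Without 1 pool between 1 and 6 genes were called, and of the 3 genes Slc5a7 alone was called without each pool in turn. The mean level of Slc5a7, 3.58, lay under background, so that a fit of the genes above background left it out. That fit called Slc16a5, Gpc6 and Snhg11. The other probe set of Slc16a5, at a mean level of 3.31, differed by -0.05 in Lu-pos and 0.92 in Lu-neg cells.

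**Figure D4:**
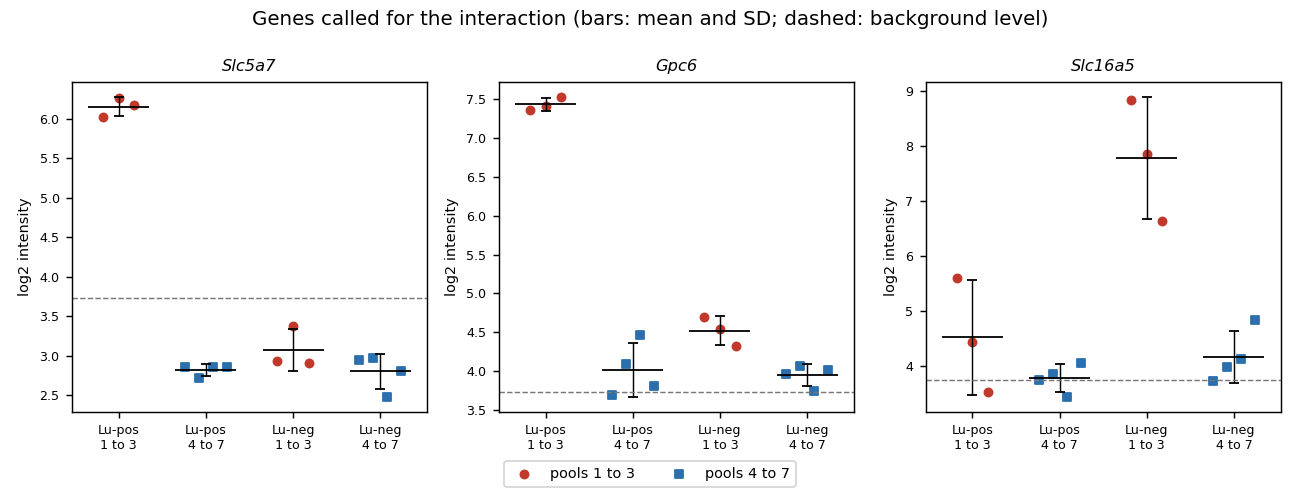
Log2 intensity on each array of the 3 genes whose pool-set difference depended on the population at an adjusted p under 0.05 from limma, with pools 1 to 3 as red circles, pools 4 to 7 as blue squares, means and SDs as bars (n = 3 and n = 4) and the background level of 3.73 as a dashed line. Slc5a7 and Gpc6 stand out in Lu-pos cells of pools 1 to 3, and Slc16a5 in Lu-neg cells of pools 1 to 3.

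A measure that the choice of members did not use is the difference between the populations. Between Lu-pos and Lu-neg cells over all pools, with the pool as a block, limma called 2559 of 22180 genes (11.5%) at an adjusted p under 0.05. Of the 397 members 120 (30.2%) were called, 36 higher and 84 lower in Lu-pos cells. Of all calls 964 were higher and 1595 lower in Lu-pos cells; scaled on housekeeping genes, 1643 were higher and 928 lower, so these directions hold relative to the scaling used. Among genes with a mean over all arrays above background, 117 of 363 members (32.2%) were called, while 21.9% of all such genes were. High levels in 1 population can lift that mean, so these genes need not be measurable in both. Among members named above, Aldh1a3, Lbp, Fads1 and Fads2 were higher in Lu-pos cells, while Il33 (-1.28, adjusted p = 0.0187) and Krt6a (-2.11, adjusted p = 0.000149) were lower. Coro2a (-0.07), Apobec3 (0.39), Ly6e (-0.17) and ND3 (-0.08) had an adjusted p above 0.05, which does not show that the populations had the same level.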

How the data were processed

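RNA of 14 samples of sorted mammary luminal cells, 7 Lu-pos and 7 Lu-neg, was amplified by the authors and hybridized to Affymetrix mouse whole-transcript arrays. The table deposited by the authors holds 1 log2 intensity for each probe set and array. RMA and the Affymetrix Expression Console are named, without versions, in the submitters' processing notes. The study's methods describe a separate analysis by other software. No 2 arrays held identical values. Array medians lay between 3.46 and 3.58. Array values carry no read depth; precision is limited by how many arrays there are. Replicates are pools of glands.

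Of 41345 probe sets, 23521 had 1 gene symbol, 1820 several and 16004 none in the annotation used, and only the first were analysed. For 1082 of 22180 genes with several probe sets the brightest was used. Names matched RefSeq (GRCm38.p6) for 22139 genes. As background level served 3.73, below which lay 95% of the mean levels of 1394 olfactory and vomeronasal receptor genes; 11029 genes lay above it. For an on-or-off gene, "at least" folds set every lower array to that level or its own value, whichever was higher.

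Differences are means of 3 pools minus means of 4 pools. The interaction and the population contrast were fitted with lmFit and eBayes of limma 3.58.1 in R 4.3.3, Benjamini-Hochberg adjusted over all genes. Only the interaction fit was checked on simulated data first. The series' design pairs the arrays by pool. Deviations from group means correlated within the 7 pools at 0.178, 0.256, 0.189, 0.171, 0.246, 0.211 and 0.166. After removal of the pool-set means they correlated at 0.0457 to 0.227. In pool 6 the latter value was 0.074, and the highest with another pool of its set was 0.118. In each other pool the within-pool value was the higher. The split of the pools, the members and the gene lists were chosen with earlier results of these data known. Genes were named by rule: the 12 largest differences in each direction among members without overlap whose higher set was above background, up to 2 members per direction of each list, 2 genes on each side of the threshold and every gene called for the interaction. Others are named after their values were seen, those in the closing section included. Alternatives were other folds, scalings, probe set rules and filters, medians, other fits and each pool left out.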

Additional observations from a re-analysis of the deposited data

Results flagged for a closer look

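In 9 of 128 groups of 4 arrays tested (64 named genes, pools 4 to 7 in each population), 1 array lay apart from the other arrays of its group by Dixon's criterion, which chance meets in about 1 in 20 groups. In Lu-pos cells these were Rab6b in pool 5 (4.86, others 4.30 to 4.37), Tpm3 in pool 6 (7.87, others 8.14 to 8.19), 9030025P20Rik in pool 5 (6.43, others 5.29 to 5.46), Fads1 in pool 6 (7.52, others 7.41 to 7.42), Mrps21 in pool 6 (8.09, others 7.74 to 7.77) and Slc5a7 in pool 5 (2.71, others 2.85 to 2.86). In Lu-neg cells they were Glycam1 in pool 4 (6.18, others 3.82 to 4.12), Cyp51 in pool 5 (3.69, others 4.23 to 4.34) and Snora20 in pool 5 (4.58, others 4.11 to 4.17).

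The pool-set difference in Lu-pos minus that in Lu-neg cells was called by limma for Slc5a7 (3.06), Slc16a5 (-2.87) and Gpc6 (2.84).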

How the results depend on the processing

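The 397 members became 1561 at a lower minimum fold (763 higher, 798 lower), 89 at 2-fold (41 higher, 48 lower) and 198 when arrays were also required not to overlap (79 higher, 119 lower). Without 1 pool the count lay between 400 and 492, with 181 to 266 higher and 213 to 269 lower; the 266 came without pool 3, where the split was 54.1% higher against 44.3% over all pools. With the 75th percentile as scaling 32.7% of 419 members were higher. Of the 397 genes, 303 were members under all 4 other scalings and with the mean of the probe sets, 171 without each pool in turn, and 156 in all of these. Medians in place of means shared 298.

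The interaction called 3 genes with the pool as a block, 7 with no replicate block, among which Slc16a5 was not (limma adjusted p = 0.319), 0 with eBayes set to trend and robust (1862 at an unadjusted p under 0.05), and 1 to 6 without 1 pool. Between the populations the replicate block changed the count by less than 1.5 times: 2559 genes were called with it and 2038 without; leaving out 1 pool gave 1910 to 2207. With the housekeeping scaling 1643 of these calls were higher and 928 lower in Lu-pos cells, against 964 and 1595.

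Of 1280 differences of single named genes under an alternative, 1268 moved by less than 1 SD, 11 by more, 10 of them with the mean of the probe sets, and 1 reversed: Glycam1 in Lu-pos cells ranged from -1.26 to 0.32 without 1 pool, the 0.32 without pool 5. The causes were not tested. The number of arrays and signals near background limit what can be told apart.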
